A study of Mus musculus with 12 samples.

Results

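Cholesterol is built by a chain of enzymes, and 8 of the genes behind that chain and its control were followed here across mammary tissue and breast cancer cell lines of the mouse: Hmgcs1, Mvd, Idi1, Fdps, Sqle, Cyp51, Msmo1 and Insig1. They were chosen by name, as genes of sterol synthesis and its control, with earlier results of these data known. Every probe set annotated to one of them was taken. A probe set is the group of array probes that reads 1 transcript. Of the 8 genes, 7 had a probe set, 15 probe sets in all, among 12393 genes and 22690 probe sets on the array. Insig1 had none in the annotation used and was not analysed here.

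The study profiled 12 RNA samples of breast cancer formation in mice that carry the WAP-SVT/t transgene. The first group held 3 mammary glands of female NMRI mice without the transgene, and the second 3 glands of female WAP-SVT/t mice of the same strain, called transgenic glands below. Both were taken on the first day of lactation. In the transgenic animals the SV40 T/t antigens are made in mammary epithelial cells, per the labels, and the transgene is named after Wap, a milk protein gene whose promoter is active in the lactating gland. The third group held 3 breast cancers of WAP-SVT/t mice. The lines ME-A, ME-B (labelled a revertant) and ME-B-T/t (labelled retransformed) gave 1 array each. The sources used here do not give ages, the lactation state of the tumor-bearing mice or the strain of the lines. The samples are numbered in the labels and nothing else is said on separate mice, so p-values measure the spread between these samples.

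Sterol synthesis starts from acetyl-CoA. Hmgcs1 encodes the cytosolic HMG-CoA synthase, Mvd the mevalonate diphosphate decarboxylase, Idi1 the isopentenyl diphosphate isomerase and Fdps the farnesyl diphosphate synthase, whose product also feeds protein prenylation. Sqle encodes squalene epoxidase, the first oxygen-dependent step, and Cyp51 and Msmo1 encode enzymes that strip methyl groups from lanosterol on the way to cholesterol. The genes are known to be switched on together by the transcription factor SREBP2 (gene Srebf2). SREBP2 travels with its escort SCAP to the Golgi to be cleaved when membrane sterol is low, and INSIG proteins hold it back when sterol is high. The lactating gland makes cholesterol as well as fatty acids, and milk fat leaves the cell wrapped in membrane.

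The promoters of the members on which the results below turn are shown first, because sterol genes are known to share control elements there. RefSeq's promoter table (GRCm38.p6) matched 6 of the 8 members. Each sequence is the 250 bases before the start of the gene, read 5′ to 3′ on the gene's strand. Capitals mark the letters TCACNCCA, a core of the sterol response element that SREBP2 binds, and the letters CCAAT, the box bound by NF-Y, which is known to act beside SREBP2. Both were searched on both strands, so that ATTGG is a CCAAT on the other strand, and no match of one overlapped a match of the other. Msmo1 (chromosome 8, minus strand, chr8:64733579-64733828) and Mvd (chromosome 8, minus strand, chr8:122443423-122443672) are the members that were lower in transgenic than in NMRI glands past the test threshold. Hmgcs1 (chromosome 13, plus strand, chr13:119690101-119690350) and Idi1 (chromosome 13, plus strand, chr13:8885356-8885605) are among the 3 members 2-fold or more lower in ME-B than in both other lines, Idi1 only just.
Msmo1: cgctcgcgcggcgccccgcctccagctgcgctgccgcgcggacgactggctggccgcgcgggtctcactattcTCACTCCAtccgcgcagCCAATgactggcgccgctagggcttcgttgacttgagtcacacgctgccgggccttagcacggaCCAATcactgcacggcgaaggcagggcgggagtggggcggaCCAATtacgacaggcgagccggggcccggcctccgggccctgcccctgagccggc
Mvd: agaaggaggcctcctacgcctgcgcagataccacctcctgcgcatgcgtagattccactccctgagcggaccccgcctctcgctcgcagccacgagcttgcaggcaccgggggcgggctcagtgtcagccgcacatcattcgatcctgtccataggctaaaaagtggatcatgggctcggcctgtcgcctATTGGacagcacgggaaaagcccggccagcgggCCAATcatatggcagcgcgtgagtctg
Hmgcs1: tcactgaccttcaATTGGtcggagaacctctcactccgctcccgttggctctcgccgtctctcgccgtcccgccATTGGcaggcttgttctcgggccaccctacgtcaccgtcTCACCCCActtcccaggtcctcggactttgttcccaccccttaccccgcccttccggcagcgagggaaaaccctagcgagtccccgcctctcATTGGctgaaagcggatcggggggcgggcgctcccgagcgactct
Idi1: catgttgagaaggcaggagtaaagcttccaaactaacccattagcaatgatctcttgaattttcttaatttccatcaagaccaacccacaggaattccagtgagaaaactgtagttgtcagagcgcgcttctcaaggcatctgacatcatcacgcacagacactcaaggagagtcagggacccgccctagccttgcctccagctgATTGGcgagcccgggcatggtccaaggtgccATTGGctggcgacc

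The sterol core was in 2 of the 6 member promoters, against 3.67% of 32851 mouse promoters of the same length. It was in 0 of 15 promoters of other sterol synthesis enzymes and in 1 of 14 promoters of SREBP regulators. Among the members the core lay 177 to 170 bases before the start in Msmo1 and 137 to 130 bases before it in Hmgcs1. A CCAAT was in 6 of 6 member promoters, against 33.8% of all promoters, and Msmo1 and Hmgcs1 held 3 each. Of the other synthesis enzymes' promoters 10 of 15 held a CCAAT, and of the SREBP regulators' promoters 4 of 14. These matches describe letters in a window of 250 bases, and no binding was measured.

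**Figure D1:**
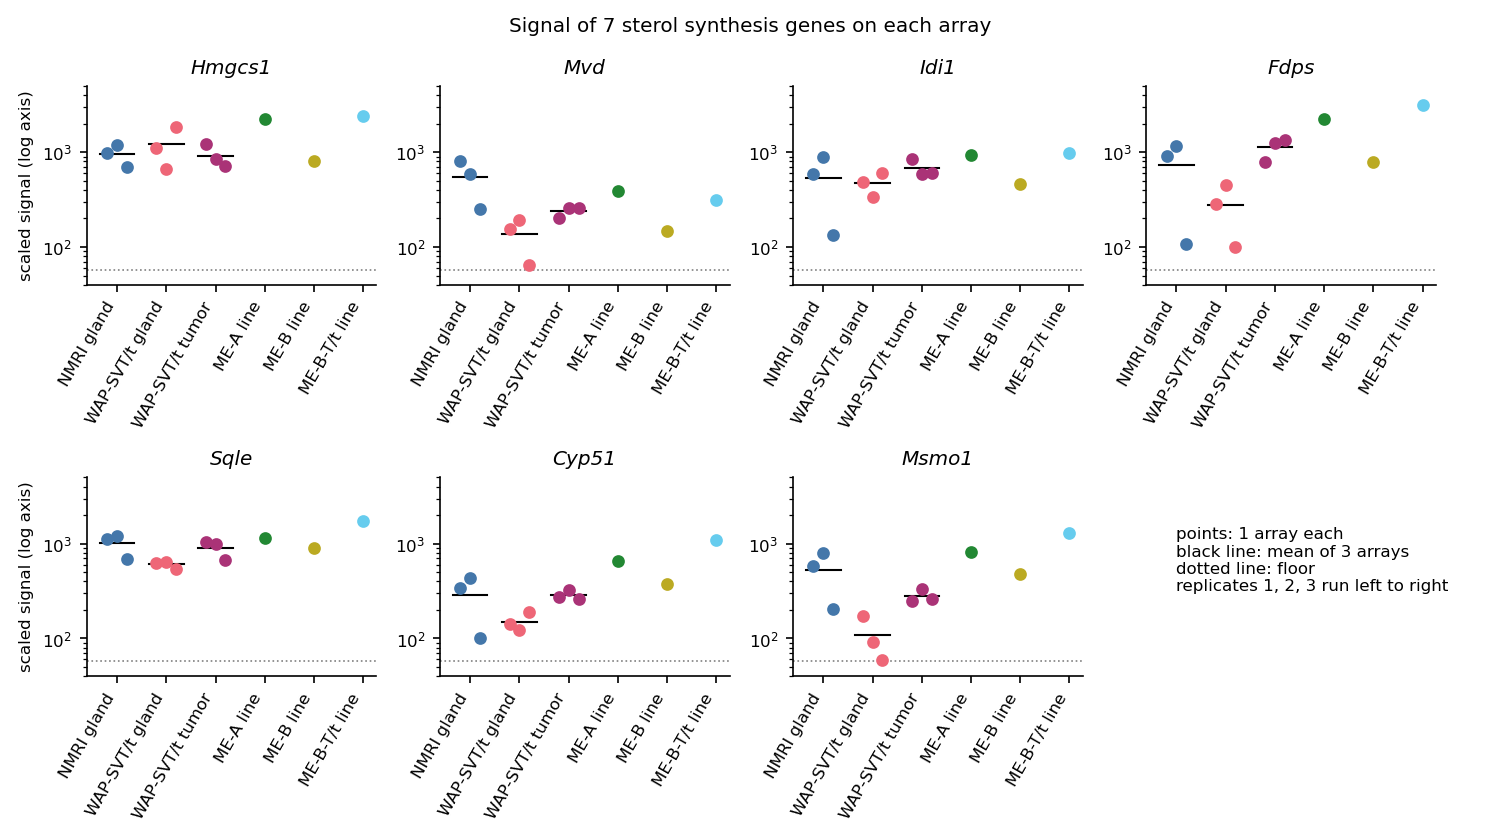
Scaled array signal (log axis) of the 7 measured genes, 1 panel a gene and 1 point an array, with the mean of 3 arrays as a black line and the floor as a dotted line. Transgenic glands lie below NMRI glands and below tumors in Mvd, Sqle and Msmo1, NMRI gland 3 is the lowest NMRI gland in all 7 panels, and ME-B is the lowest line in all 7.

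Values are array signals, brightness on a linear scale after each array was scaled to a common mean, and each gene is given by its probe set with the highest mean signal over the arrays compared. Signals of different genes are not set against each other, since probes differ in brightness. For Hmgcs1, NMRI glands 1 to 3 gave 977, 1183 and 702, transgenic glands 1105, 668 and 1865, tumors 1207, 839 and 724, and the lines 2267 in ME-A, 816 in ME-B and 2430 in ME-B-T/t. The 3 tissue groups overlapped, and ME-A and ME-B-T/t lay above all 9 tissue arrays. For Mvd, the signals were 803, 587 and 250 in NMRI glands, 155, 193 and 64.9 in transgenic glands and 202, 258 and 257 in tumors. All transgenic glands lay below all tumors and all NMRI glands, while tumors and NMRI glands overlapped through NMRI gland 3. In the lines, the same probe set of Mvd gave 387, 148 and 314, in the same order as above. For Idi1, NMRI glands gave 589, 898 and 133, transgenic glands 483, 336 and 598, tumors 857, 587 and 610, and the lines 928, 460 and 970. The tissue groups overlapped, and NMRI gland 3 was the lowest of the 12 arrays. For Fdps, NMRI glands gave 906, 1170 and 107, transgenic glands 284, 448 and 99.7, tumors 788, 1264 and 1345, and the lines 2258, 789 and 3178. Tumors lay above all transgenic glands, and NMRI glands 1 and 2 did too, but NMRI gland 3 did not.

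Among the later enzymes, Sqle gave 1133, 1210 and 684 in NMRI glands, 631, 638 and 544 in transgenic glands, 1049, 1003 and 675 in tumors, and 1163, 908 and 1726 in the lines. The transgenic glands were the lowest group with no overlap, and tumors and NMRI glands overlapped. Cyp51 gave 341, 431 and 101 in NMRI glands, 142, 121 and 189 in transgenic glands, 271, 322 and 264 in tumors, and 663, 378 and 1089 in the lines. Each line lay above each tumor and each tumor above each transgenic gland, while the NMRI glands spread over both tissue groups. Msmo1 gave 589, 792 and 205 in NMRI glands, 174, 92.1 and 58.9 in transgenic glands, 251, 334 and 261 in tumors, and 817, 484 and 1295 in the lines. As group means, Msmo1 stood at 865 ± 408 (SD, n = 3) over the lines, 528 ± 298 in NMRI glands, 282 ± 45.5 in tumors and 108 ± 59.1 in transgenic glands. Neighbours in that order overlapped, except that transgenic glands lay below every other array.

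The arrays differed in RNA integrity. The ratio of 3-prime to 5-prime control signal of Gapdh, which rises as RNA is degraded, was 12.9, 2.28 and 40.3 in NMRI glands 1 to 3, 10.7, 2.49 and 22.5 in transgenic glands, 5.63, 0.982 and 0.969 in tumors and 0.753 to 0.949 in the lines. The mean log2 signal of the 7 genes was 9.48, 9.72 and 7.85 in the NMRI glands, 8.34, 8.13 and 7.90 in the transgenic glands, 9.05, 9.13 and 8.95 in the tumors, 9.996 in ME-A, 8.95 in ME-B and 10.33 in ME-B-T/t. NMRI gland 3, with the highest Gapdh ratio, had the lowest mean of the 12 arrays. The part of RNA integrity in the differences was not tested apart from fits with the ratio as a covariate, which are given beside the differences they turn or move across the threshold.

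**Figure D2:**
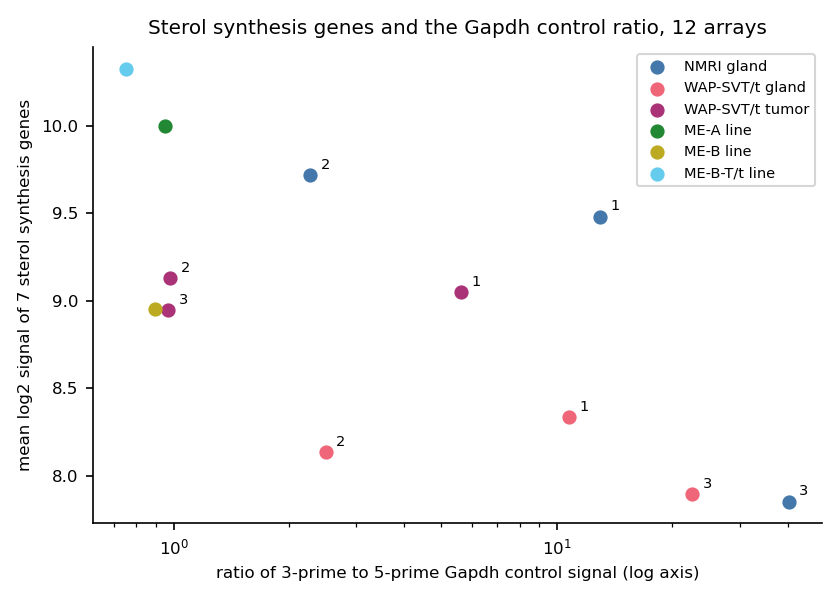
Mean log2 signal of the 7 genes against the ratio of 3-prime to 5-prime Gapdh control signal (log axis), 1 point an array, with replicate numbers beside the tissue points. NMRI gland 3 (ratio 40.3) lies at 7.85, NMRI gland 2 (2.28) at 9.72 and transgenic gland 2 (2.49) at 8.13.

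Cell content differed too. The summed signal of 6 milk protein genes, all measured, was 84042 to 99164 in NMRI glands, 41242 to 45889 in transgenic glands and 8862 to 16450 in tumors. The 9 luminal epithelial markers (keratins, junction genes, Elf5 and Muc1) were all above the floor in every tissue array (22767 to 44088), so the tissue label was borne out. Of them Elf5, Krt19 and Muc1 were called lower in tumors than in NMRI glands. The 7 basal and myoepithelial markers summed to 7019 to 10932 in NMRI glands, 8017 to 10162 in transgenic glands and 1250 to 3738 in tumors, and 6 of 6 tested were called lower in tumors against either gland group. The 8 skeletal muscle markers summed to 10046 to 20898 in NMRI glands, but to 946, 1124 and 19392 in the transgenic glands and 11016, 297 and 233 in the tumors. The 7 measured adipocyte markers summed to 12242 to 20000 in NMRI glands, 17644 to 29797 in transgenic glands and 908 to 8581 in tumors. The 7 macrophage markers summed to 9856 to 16288 in NMRI glands, 9080 to 17285 in transgenic glands and 9452 to 11038 in tumors. In transgenic against NMRI glands 5 of them lay above 0, with Aif1 and Mpeg1 called higher. The other 2 lay below 0: Adgre1, with means of 465 against 666, and Cd14, with 4974 against 8990. The fibroblast marker Pdgfrb was called higher in transgenic than in NMRI glands. Transgenic gland 2 stood apart in the 6 measured T and B cell markers, at 2407 against 432 to 928 in the other glands. Their part in the results below was not tested. In bulk samples fewer cells of a type and less RNA per cell cannot be told apart.

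Transgenic glands were compared with NMRI glands for the effect of the transgene at the same day of lactation. Late-pathway Msmo1 and early-pathway Mvd fell past the threshold, and no measured member rose past it. Msmo1 was 4.66-fold lower, a log2 difference of -2.22 ± 0.50 (SE, n = 3 against 3, limma adjusted p = 0.0165). Mvd was 3.93-fold lower (-1.98 ± 0.47, limma adjusted p = 0.0215). Its second probe set, with 384, 339 and 159 in NMRI glands and 93.5, 192 and 112 in transgenic glands, overlapped and gave -1.12 ± 0.41 (limma adjusted p = 0.116). Sqle had lower signals in all 3 transgenic glands, at -0.70 ± 0.28 (limma adjusted p = 0.142). Cyp51 stood at -0.72 ± 0.46 (limma adjusted p = 0.348) and Fdps at -1.05 ± 0.80 (0.443). The first enzyme Hmgcs1 stood at 0.25 ± 0.37 (limma adjusted p = 0.713) and Idi1 at 0.15 ± 0.57 (0.901).

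So 2 of 7 measured members were called, both lower, where 10.1% of 7898 genes tested were called in either direction and 4.03% lower. Groups did not overlap, with the transgenic glands lower, for 3 of the 7 (Mvd, Sqle and Msmo1) and for 14.8% of all genes. The members' median log2 difference was -0.72, and that of all genes 0.01. With any 1 array left out, Msmo1 stood at -2.80 to -1.82 and Mvd at -2.46 to -1.51, so both kept their direction. The calls were not kept with fewer arrays: 0 members were called without NMRI gland 1, without NMRI gland 2 or without transgenic gland 3, 1 (Mvd) without transgenic gland 2, and 4 (Cyp51, Fdps, Msmo1 and Mvd) without NMRI gland 3. With no filter on dim genes the 2 differences stayed as they were. More genes then entered both the fit and the adjustment, and Msmo1 had a limma adjusted p of 0.0782 and Mvd of 0.0896. With the replicate number as a block and the Gapdh ratio as a covariate, Fdps was called as well (-1.32, limma adjusted p = 0.0106).

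**Figure D3:**
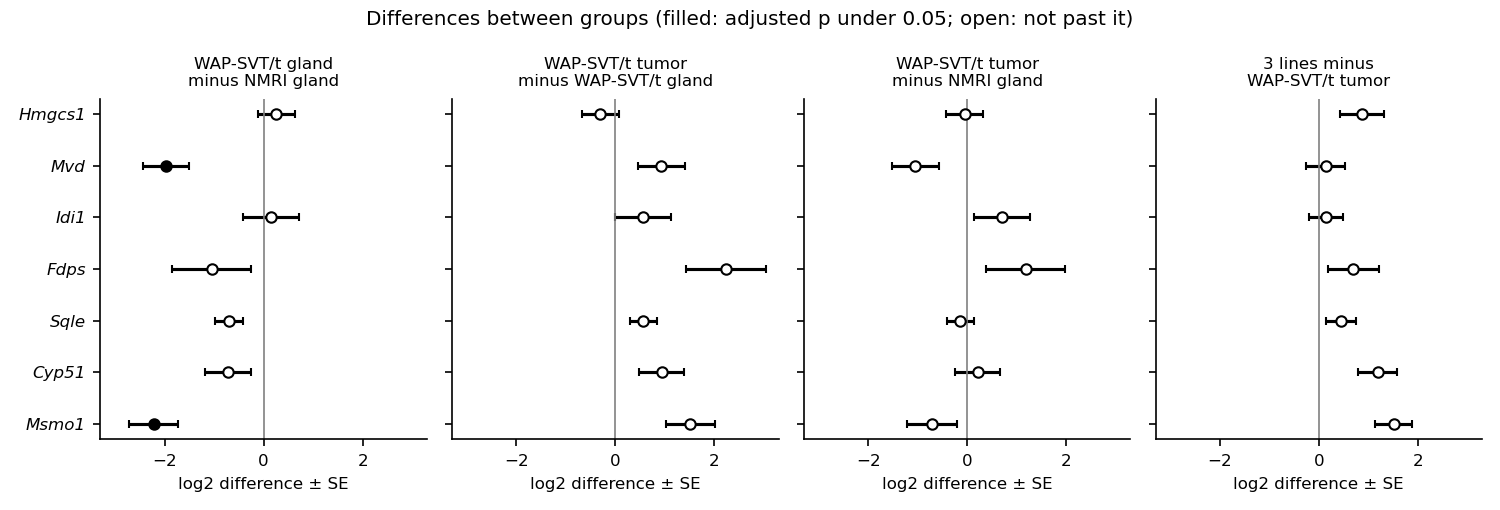
Log2 differences ± SE of the 7 genes in 4 comparisons of 3 arrays against 3, filled where the limma adjusted p was under 0.05. Only Mvd and Msmo1 in transgenic against NMRI glands are filled, and all 7 points lie above 0 in the lines against tumors.

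Tumors were compared with transgenic glands, which carry the same transgene. Signals were higher in every tumor than in every transgenic gland for 5 of the 7 measured members (Mvd, Fdps, Sqle, Cyp51 and Msmo1), where 8.81% of all genes showed that, but none passed the limma test. The 2 with an unadjusted p under 0.05 were Msmo1 (1.51 ± 0.50, limma adjusted p = 0.151) and Fdps, 4.73-fold higher (2.24 ± 0.80, limma adjusted p = 0.188). Cyp51 stood at 0.94 ± 0.46 (limma adjusted p = 0.347), Mvd at 0.93 ± 0.47 (0.360), Sqle at 0.57 ± 0.28 (0.353) and Idi1 at 0.55 ± 0.57 (0.681). Hmgcs1 alone had a value below 0, at -0.30 ± 0.37 (limma adjusted p = 0.733). The count called was 0 of 7 against 2.95% of all genes, and the members' median was 0.93 against -0.00 for all genes. This comparison shares the transgenic glands with the one before. Without NMRI gland 3, which enters only through the shared estimate of spread, Fdps was called (limma adjusted p = 0.0465). With the Gapdh ratio as a covariate, Fdps stood at 0.83, Msmo1 at 0.90, Cyp51 at 0.52, Mvd at 0.29 and Idi1 at 0.15, and with the replicate block as well Idi1 turned to -0.15.

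Tumors and NMRI glands, the 2 ends of the tissue series, gave 0 of 7 members called, while 24.6% of all genes were. None of the 7 was without overlap between the groups, where 43.9% of all genes were, in either direction. Mvd, with an unadjusted p under 0.05, stood at -1.05 ± 0.47 (limma adjusted p = 0.126) and Msmo1 at -0.71 ± 0.50 (0.328). Fdps stood at 1.19 ± 0.80 (limma adjusted p = 0.309) and Idi1 at 0.71 ± 0.57 (0.394). Cyp51 (0.21), Sqle (-0.13) and Hmgcs1 (-0.05) had the smallest differences, and the median was -0.05. NMRI gland 3 had the lowest NMRI signal of all 7 genes. Without it Mvd was called, at -1.53 (limma adjusted p = 0.0340), Fdps stood at 0.099, Idi1 at -0.11 and Cyp51 at -0.43. With the Gapdh ratio as a covariate Mvd was called as well, at -1.78 (limma adjusted p = 0.0251), and Fdps turned to -0.42, Cyp51 to -0.26 and Hmgcs1 to 0.22. With the replicate block besides, Msmo1 was called too (-1.68, limma adjusted p = 0.0444), Mvd stood at -2.09, Fdps at -0.92 and Idi1 at -0.10.

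The 3 lines, taken as 1 class, were compared with the 3 tumors. All 7 members had values above 0, with a median of 0.69 against -0.00 for all genes, but 0 passed the limma test, where 2.3% of 7346 genes did. Msmo1 (1.52 ± 0.38, limma adjusted p = 0.106) and Cyp51 (1.19 ± 0.39, limma adjusted p = 0.201) had an unadjusted p under 0.05 and were higher in each line than in each tumor, as were 11.2% of all genes. Hmgcs1 stood at 0.87 ± 0.45 (limma adjusted p = 0.373), Fdps at 0.69 ± 0.52 (0.529) and Sqle at 0.45 ± 0.31 (0.494). Idi1 and Mvd both stood at 0.14. The spread within the class is that between different lines, and ME-B was its lowest for every member.

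ME-B, the revertant, had lower signals of all 7 measured members than both other lines, ME-A and the retransformed ME-B-T/t. As each line had 1 array, there is no replicate check and no test was made. Lower than both lines by any amount were 7 of 7 members and 30.5% of 7945 genes. By 2-fold or more against both, 3 of 7 members were lower, and 2.3% of all genes. The members were chosen with earlier results of these data known, so these shares only describe them. Fdps was 2.86-fold below ME-A and 4.03-fold below ME-B-T/t. Hmgcs1 was 2.78-fold and 2.98-fold below them, and Idi1 2.02-fold and 2.11-fold, just inside the limit. The other probe set of Idi1 was 1.90-fold and 1.47-fold below, and Idi1 left the 2-fold limit after quantile normalization, without scaling, with 16 added in place of the floor and as a mean of probe sets, at -0.996 to -0.967 on the log2 scale against ME-A. As a mean of probe sets Fdps left it too, at -0.76 against ME-A, where its second probe set was under the floor in all 3 lines. Just outside it was Mvd, which was 1.94-fold and 2.04-fold below by the probe set brightest in the lines, and 2.61-fold and 2.12-fold below by its other probe set. Cyp51 was 1.76-fold and 2.88-fold below, Msmo1 1.69-fold and 2.68-fold, and Sqle 1.28-fold and 1.90-fold. By the brightest probe sets each of the 7 members differed less from ME-A than from ME-B-T/t. By the other probe sets of Idi1 and Mvd it was the reverse, and so it was by another of Hmgcs1 (2.86-fold and 2.75-fold).

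All probe sets were then read singly. Of the 15, 13 were above the floor in the 3 lines, and 13 of those 13 were lower in ME-B than in both other lines, 7 of them by 2-fold or more. The 4 probe sets of Hmgcs1 were 2.69-fold to 2.86-fold below ME-A and 2.75-fold to 4.04-fold below ME-B-T/t, and they read the same gene, so they are not independent. The median difference of the members was -0.96 on the log2 scale against ME-A and -1.42 against ME-B-T/t, where all genes had -0.00 and -0.04. The Gapdh ratio of the lines was near 1 in each, at 0.949, 0.897 and 0.753. The lines differed in cell type markers, although their labels name them alike. The 9 luminal markers summed to 29730 in ME-A, 1399 in ME-B and 563 in ME-B-T/t, with 9, 4 and 3 of them above the floor. The 7 measured fibroblast and matrix markers summed to 224, 2799 and 6775, and the 7 basal markers to 1771, 5620 and 11089. Most of the basal sum in ME-B and ME-B-T/t was Acta2, at 234, 5093 and 10532 in the 3 lines. Trp63 ran the same way, at 28.4, 118 and 352, but Krt14 ran the other way, at 1326, 243 and 11.8. Myh11 and Cnn1 were at the floor in all 3 lines. The 6 milk protein genes summed to 3824, 436 and 465, and the 7 adipocyte markers to 391, 386 and 720. The part of these differences in the sterol genes' levels was not tested.

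**Figure D4:**
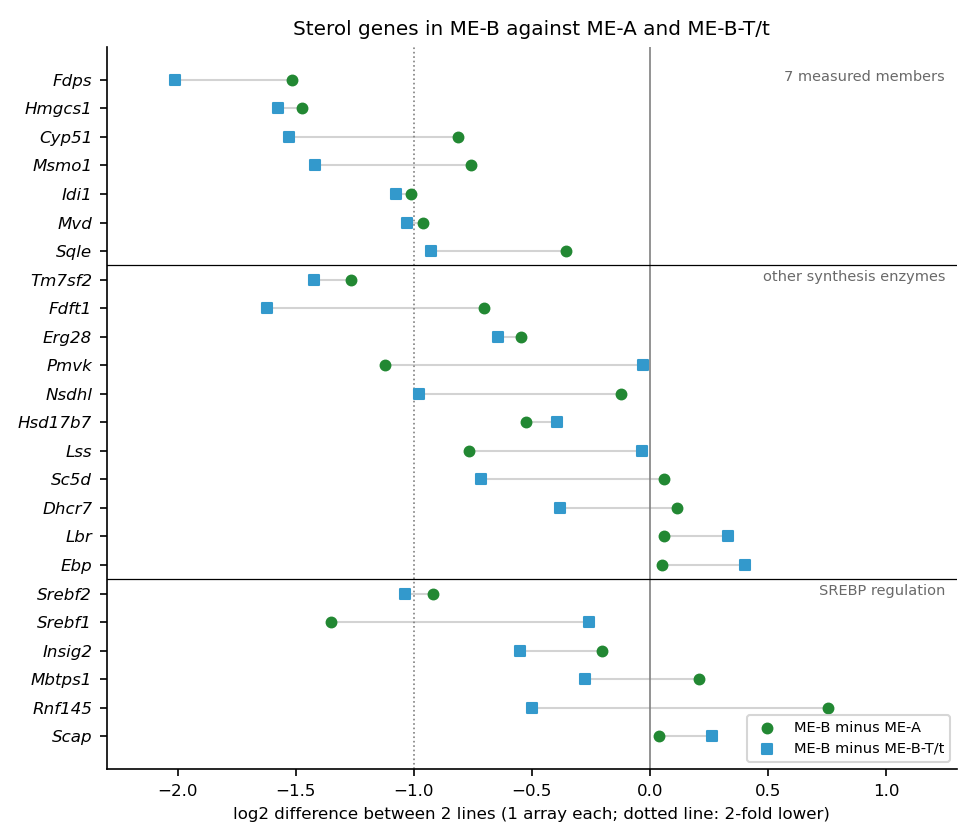
Log2 difference of ME-B from ME-A (circles) and from ME-B-T/t (squares), 1 array a line, for the 7 measured members, 11 other synthesis enzymes and 6 SREBP regulators, with a dotted line at 2-fold lower. All 14 member points lie below 0, and the other enzymes and the regulators lie on both sides.

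The other genes of sterol handling were read from lists of synthesis enzymes, SREBP regulators, uptake and transport, efflux, esters and oxysterols, and isoprenoid branches. Of 66 genes listed, 49 had a probe set. In ME-B, 7 of 11 other synthesis enzymes were below both lines, where 30.5% of all genes were. By 2-fold or more 1 of them was, where 2.3% of all genes were. It was the sterol reductase gene Tm7sf2, 2.40-fold and 2.68-fold below ME-A and ME-B-T/t. Fdft1, the squalene synthase that follows Fdps, was 1.63-fold and 3.08-fold below. The lipoprotein receptor gene Vldlr was 3.27-fold and 4.49-fold below. Over all these lists, 21 of 43 genes compared were below both lines, and 2 of them, Tm7sf2 and Vldlr, by 2-fold or more. Srebf2 had signals of 1136 in ME-A, 600.0 in ME-B and 1233 in ME-B-T/t, or 1.89-fold and 2.06-fold below. The other probe set of Srebf2, which is the brighter one in the tissues, gave 760, 522 and 1239 in the same order. Its relative Srebf1, which drives fatty acid genes, had 2442, 958 and 1146, so that ME-B stood 2.55-fold below ME-A and 1.196-fold below ME-B-T/t. The escort gene Scap had 573, 589 and 491 and was not lower in ME-B.

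In the tissues, 44 of the pathway genes were tested. In transgenic against NMRI glands 1 was called higher and 1 lower, where 10.1% of all genes were called. Lbr, a lamin receptor that is also a sterol reductase, was 3.04-fold higher (1.60 ± 0.26, limma adjusted p = 0.00266), with 347, 332 and 437 in NMRI glands against 1088, 1299 and 998. Lipa, the lysosomal lipase that frees cholesterol from esters, was 1.76-fold lower (-0.82 ± 0.23, limma adjusted p = 0.0472). That call of Lipa was lost after quantile normalization, without scaling, with no filter and with the replicate number as a block, where Lbr, Npc2 and Osbp were called. Against transgenic glands, tumors had 1 gene lower, again Lipa, at -2.26 (limma adjusted p = 0.00059), and 0 higher, where 2.95% of all genes were called. Against NMRI glands, tumors had 2 higher, Lbr (1.78, limma adjusted p = 0.000708) and the sterol carrier gene Stard4 (1.06, 0.0145), and 4 lower, where 24.6% of all genes were called. The 4 lower ones were Lipa (-3.08, limma adjusted p = 8.24e-06), the sterol reductase gene Tm7sf2 (-1.17, 0.0255), the lysosomal sterol exporter Npc2 (-1.04, 0.00895) and Nr1h3, which encodes the oxysterol receptor LXR alpha (-1.14, 0.0238). Without NMRI gland 2, 3 of the 6 were called: Lbr, Lipa and Npc2.

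Srebf2 was higher in every tumor than in every gland, with 449, 921 and 440 against 345, 348 and 214 in NMRI glands and 321, 430 and 177 in transgenic glands. The differences were 0.94 from NMRI glands (limma adjusted p = 0.103) and 0.97 from transgenic glands (0.254). Its second probe set was 123, 241 and 135 in NMRI glands, 119, 238 and 134 in transgenic glands and 587, 942 and 441 in tumors. When every probe set was tested on its own, Srebf2 was called as higher in tumors than in transgenic glands. Srebf1 (-0.94, limma adjusted p = 0.268) and Scap (-0.78, 0.262) were not called in transgenic against NMRI glands.

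In the lines against tumors, 2 of 42 tested pathway genes were called, where 2.3% of 7346 genes were. Both were lower, and both are genes of cholesterol efflux. Apoe, the apolipoprotein of macrophages and other cells that takes up exported sterol, was at the floor in all 3 lines and so at least 67.7-fold lower than in tumors (limma adjusted p = 0.000185). The exporter gene Abcg1 was 4.25-fold lower (limma adjusted p = 0.0103). Neither was called when any 1 tumor was left out, and with any 1 of the 6 arrays left out the calls over all genes ran from 0 to 785. The signals of Apoe lay far apart all the same, at 3157, 3211 and 5819 in tumors against a floor of 57.5, and those of Abcg1 were 560, 585 and 509 in tumors and 97.9, 141 and 158 in the lines. Of the 7 macrophage markers, 6 were called lower in the lines as well, and their summed signal was 912 to 3213 in the lines and 9452 to 11038 in tumors. Their part was not tested.

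Fatty acid synthesis, the other lipid pathway of the lactating gland, was read beside the sterol genes. In transgenic against NMRI glands 6 of its 14 tested genes were called lower, where 4.03% of all genes were, and 0 higher, with a median of -1.31. Me1, the malic enzyme that supplies NADPH, was 4.19-fold lower (limma adjusted p = 0.00055), and the desaturase gene Fads1 3.55-fold lower (0.0043). Olah, the thioesterase that ends medium chains for milk fat, had 5394, 3998 and 1500 in NMRI glands and 338, 4.14 and 43.9 in transgenic glands, the last 2 of them under the floor. Tumors had 0 of 14 fatty acid genes called against transgenic glands, where 2.95% of all genes were. The smallest p were those of Scd2 (1.62, limma adjusted p = 0.0581), Scd1 (-1.27, 0.0616) and Mid1ip1 (0.98, 0.0783). Against NMRI glands 9 were lower and 1 higher in tumors, where 24.6% of all genes were called in either direction. Olah, under the floor in all tumors, was at least 55.4-fold lower (limma adjusted p = 0.000119), Fads1 4.91-fold (0.00054) and Me1 4.46-fold lower (0.000225). In the lines against tumors 0 of 12 were called, where 2.3% of all genes were. The 3 with the smallest p were Fads2 (1.18, limma adjusted p = 0.105), Me1 (0.64, 0.268) and Scd1 (-0.84, 0.422). In ME-B, 1 of 13 fatty acid genes was 2-fold below both lines, where 2.3% of all genes were. It was the desaturase gene Scd1, 2.90-fold below ME-A and 2.18-fold below ME-B-T/t.

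The members varied together over the 12 arrays, though not all alike. Over the 21 pairs of members, Pearson's r of log2 signals ran from -0.01 (Hmgcs1 with Mvd) to 0.92 (Sqle with Msmo1), with a median of 0.66, and 14 pairs were above 0.5. These are descriptions over arrays that share RNA integrity and tissue type, and carry no p. Of 8180 genes ranked by their correlation with the members' mean, the 6 most like it were Tnpo2 (r = 0.91), Gemin7 (0.89), Hsd17b7 (0.88), Fdft1 (0.87), Pafah2 (0.86) and Zmym3 (0.86). Hsd17b7 encodes a keto-reductase of sterol synthesis and Fdft1 the squalene synthase. Of 11 other synthesis enzymes ranked, 5 were among the first 100: Hsd17b7, Fdft1, Dhcr7, Erg28 and Sc5d. Of the 6 SREBP regulators, Srebf2 was among them, at rank 69 (r = 0.75). The desaturase genes Fads2 and Scd2 stood at ranks 10 and 24.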

How the data were processed

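Affymetrix arrays, 1 for each of 12 RNA samples, were hybridised with labelled cRNA. The deposited table holds 1 linear intensity for each probe set and array, which the authors computed with MAS5, per the submitters' processing notes. The sources used here do not give its version, scaling target or detection calls. Signals were divided by each array's mean without the lowest and highest 2% (these means lay within 1.19-fold of each other) and brought to the mean over arrays. The pooled 30th percentile (57.5) served as a floor for lower signals before log2 was taken. Control probe sets (64) were left out. Of the others, 20380 named 1 gene, 691 several and 1555 none, and only the first kind was used. Each gene was read from its brightest probe set, by mean log2 signal in the arrays fitted. It was tested if 3 or more of those arrays exceeded the pooled median (139.9), or 1 line in comparisons between lines. Between 69.1% and 73.8% of probe sets were above the floor, and the number of arrays limits the precision.

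Genes were tested two-sided with limma 3.58.1 in R 4.3.3 (lmFit, eBayes with an intensity trend), with Benjamini-Hochberg adjustment over all genes tested, with calls at an adjusted p under 0.05. A single fit held the 9 tissue arrays as 3 groups (6 residual degrees of freedom). A separate fit held lines and tumors as 2 classes of 3 (4 residual degrees of freedom). ME-B was compared with both other lines by a 2-fold rule with no test. Groups did not overlap when every array of one lay above every array of the other. Tested on data simulated from the gland comparison (7898 genes), the fit recovered 20% of 2-fold and 93% of 4-fold differences, and in lines against tumors (7346 genes) 5% and 75%.

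Same-numbered NMRI and transgenic glands deviated together (correlations 0.222, 0.372 and 0.372 of their deviations from group means), and unlike-numbered ones gave -0.340 to 0.0589. The label numbers were therefore used as a block in alternative fits. The Gapdh ratios of glands 1 to 3 ran in the same order in both groups, and their part in these correlations was not tested. Same-numbered glands and tumors gave -0.172 to 0.328, and transgenic gland 3 with tumor 1, unlike in number, gave 0.338. The block was not in the main fit.

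The genes and lists were chosen with earlier results of these data known. Of genes that are no members, those named were pathway genes called in a comparison or 2-fold lower in ME-B than in both lines (up to 6 a list), Srebf2, Srebf1 and Scap, the 3 fatty acid genes with the smallest p in each comparison, and the 6 genes most correlated with the members' mean. Fdft1 in the lines was named after its values were seen. Alternatives covered scaling, floor, filter, choice of probe set, variance model, arrays left out, the replicate block and the Gapdh ratio. Python 3.11.15 with matplotlib 3.10.9 drew the figures.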

Additional observations from a re-analysis of the deposited data

How the results depend on the processing

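Counts of called members were within 1.5 times of the reported count under 85 alternatives and moved under 13. The 85 include counts of 0 that stayed at 0. For transgenic against NMRI glands alone, the count moved under 2 alternatives and stayed within that range under 15. With 1 array left out it moved under 5 and stayed under 4. In transgenic against NMRI glands (2 called), the count was 0 with no filter and 4 without replicate 3 of both gland groups, and leaving out 1 array gave 0 to 4. With the replicate block it stayed at 2, also on the 6 gland arrays alone, and the block changed no member's call in any comparison. In tumors against transgenic glands (0 called) leaving out 1 array gave 0 to 1. In tumors against NMRI glands (0 called) the count was 1 with the Gapdh ratio as covariate, 2 without replicate 3 of both gland groups and 2 with the replicate block and Gapdh ratio together, a fit chosen after seeing the data, and 0 to 1 with 1 array left out. In the lines against tumors it was 0 throughout. In ME-B (3 members 2-fold lower) it was 0 at 4-fold, and 2 after quantile normalization, without scaling, with 16 added in place of a floor (each without Idi1) and as a mean of probe sets (Hmgcs1 and Mvd). The cause of these moves was not tested.

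Values that changed sign were all uncalled. With 1 array left out, transgenic against NMRI glands gave -0.0054 to 0.62 for Hmgcs1 (below 0 without transgenic gland 3) and -0.66 to 0.71 for Idi1 (below 0 without NMRI gland 3 or transgenic gland 3). Tumors against NMRI glands gave -0.26 to 0.12 for Hmgcs1, -0.39 to 0.067 for Sqle, -0.11 to 1.27 for Idi1 and -0.43 to 0.62 for Cyp51, the last 2 below 0 without NMRI gland 3. Lines against tumors gave -0.046 to 0.49 for Idi1 (below 0 without ME-A or ME-B-T/t) and -0.14 to 0.55 for Mvd (below 0 without ME-A). Without both gland 3s, Hmgcs1 stood at -0.32 and Idi1 at -0.85 in transgenic against NMRI glands, Hmgcs1 at 0.069 in tumors against transgenic glands, and Idi1 at -0.11 and Cyp51 at -0.43 in tumors against NMRI glands. In that last comparison Hmgcs1 stood at 0.025 unscaled, 0.0021 as a mean of probe sets and 0.31 by its probe set with the smallest p. With the Gapdh ratio it stood at 0.22, Fdps at -0.42 and Cyp51 at -0.26, and with the block as well at 0.22, -0.92 and -0.42, with Idi1 at -0.10. Idi1 stood at -0.15 in tumors against transgenic glands with both.

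Over all genes, the 798 calls of transgenic against NMRI glands became 1254 with block and Gapdh ratio, and 394 to 805 with 1 array left out. The 233 of tumors against transgenic glands became 71 with no filter, 130 in a fit of 12 arrays, 98 with the Gapdh ratio and 94 without both gland 3s (69 to 230 with 1 left out). The 1942 of tumors against NMRI glands became 1072 with block and Gapdh ratio (1228 to 2274). The 169 of lines against tumors became 91 with no filter, 7 with a stricter one, 261 by single probe sets and 430 in a fit of 12 arrays (0 to 785).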

Other observations

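Abca1, which encodes the transporter that exports cholesterol from cells, had the third-lowest correlation with the members' mean and was chosen after its values were seen. Its signals were 812, 598 and 2727 in NMRI glands, 1264, 2410 and 3137 in transgenic glands, 1367, 955 and 1619 in tumors, and 249 in ME-A, 514 in ME-B and 542 in ME-B-T/t. It stood at rank 8178 of 8180 genes by correlation with the members' mean (r = -0.87 over 12 arrays, a description with no p). NMRI gland 3, lowest in the members' mean, was the highest NMRI gland for Abca1. Among the lines ME-B-T/t was the highest both for Abca1 and for the members' mean.

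By list, the median correlation with the members' mean was 0.64 for 11 other synthesis enzymes, 0.36 for 6 SREBP regulators, 0.11 for 7 genes of uptake and transport, 0.05 for 14 of fatty acid synthesis, 0.05 for 8 of the isoprenoid branches, -0.43 for 7 of efflux and -0.44 for 5 of esters and oxysterols, against -0.03 for all genes. Members and lists share arrays, RNA integrity and tissue type.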
